A study of Mus musculus with 18 samples.

Results

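The genes described here are 44 genes of fatty acid oxidation and targets of PPARA, chosen by symbol from the expression table of a mouse kidney RNA-seq study. All 44 were found among the 19545 genes of the table, and 42 were tested. They are 4 regulators, 4 genes of fatty acid uptake and activation, 5 of the carnitine shuttle, 12 of mitochondrial beta-oxidation, 3 of electron transfer, 4 of peroxisomal oxidation, 3 acyl-CoA thioesterases, 3 of omega-oxidation, 2 of ketone body metabolism and 4 other PPARA targets. The 18 kidneys came from ICR mice, an outbred stock, aged 10 weeks, and formed 6 groups of 3. The control group had no listed treatment, and the AOS group received AOS at 10 mg/kg, an agent the labels do not spell out. The HS group received a high fat diet and STZ (streptozotocin, a toxin of the insulin-producing beta cell). The remaining groups carried the same diet and STZ. HS_AOS received AOS at 10 mg/kg in addition, HS_AOS_FMT a transfer labelled AOS10mg/kg-FMT, and HS_control_FMT a transfer labelled control-FMT, where FMT is the usual abbreviation for faecal microbiota transplantation. The study asked how these transfers act on a kidney damaged by the diet and STZ. Whether a group's samples are 3 separate animals is not stated in the labels, and each p-value therefore reflects the spread between the samples given. In whole kidney RNA, fewer cells of a type and less RNA per cell cannot be told apart.

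PPARA is a nuclear receptor that is activated by fatty acids and binds DNA as a dimer with RXR, at a direct repeat of the hexamer AGGTCA with 1 base between the copies. Its targets import fatty acids, link them to coenzyme A, carry them into mitochondria as carnitine esters and shorten them by beta-oxidation, while peroxisomes shorten very long chains and microsomal Cyp4a enzymes oxidise the far end of the chain. In the kidney, the proximal tubule draws most of its energy from this pathway.

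The promoter windows of the members were searched for that repeat, AGGTCANAGGTCA, on both strands, to show where its letters lie near the start sites. RefSeq windows (GRCm38.p6, 250 bases before to 50 bases after the start) matched 35 of the 44 members, in 38 windows. The table used here held none for Cyp4a10, Cyp4a14, Cyp4a31, Crat, Acat1, Acaa2, Angptl4, Vnn1 and Decr1. No member window held the exact repeat, which 0.0396% of the 32851 windows of all genes held. With 1 mismatch or fewer, 2 of 38 member windows held it, against 0.554% of all windows. With 2 mismatches or fewer it was 7 of 38, against 3.86% of all. The single hexamer AGGTCA, which is also part of the repeat, stood in 9 of 38 member windows and in 16.3% of all. The 7 matches are printed 5′ to 3′ on the strand of the gene, with the matched 13 bases in capitals. Acot12 and Fabp1 have 1 mismatch and the others 2.
Acot12: taggacccTGACCTCTCACCTcctaagca
Fabp1: acaatcacTGACCTATGGCCTatatctga
Cd36: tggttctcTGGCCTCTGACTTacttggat
Creb3l3: ctgtaagtAGGGGAGAGGTCAcacagacc
Etfa: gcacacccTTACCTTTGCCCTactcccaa
Plin2: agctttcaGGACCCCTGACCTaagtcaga
Slc25a20: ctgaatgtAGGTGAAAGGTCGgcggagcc
The Acot12 stretch is chr13:91741403-91741431 (plus strand), the Fabp1 stretch chr6:71199804-71199832 (plus) and the Cd36 stretch chr5:17835939-17835967 (minus). The Creb3l3 stretch is chr10:81092780-81092808 (minus), the Etfa stretch chr9:55512300-55512328 (minus), the Plin2 stretch chr4:86670264-86670292 (minus) and the Slc25a20 stretch chr9:108662134-108662162 (plus). Counted from the RefSeq start that each window was built on, the capitals lie at -110 to -98 in Acot12, -67 to -55 in Fabp1, -63 to -51 in Cd36, -209 to -197 in Creb3l3, -77 to -65 in Etfa and -225 to -213 in Plin2. In Slc25a20 they lie after that start, at positions 6 to 18. In Acot12, Cd36 and Creb3l3 the stretch lies inside the gene's full annotated span, so the start used there is not the outermost one. In Plin2 the stretch lies outside that span, but the start used is not the outermost one either. A match says only that these letters occur there. As the values below show, these 7 genes did not form a group by expression: Creb3l3 and Fabp1 were near or below 1 FPKM in most kidneys, while Cd36 and Etfa were among the abundant members.

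The values are FPKM, fragment counts scaled to transcript length and library size, so levels can be set side by side between genes. The depth of the libraries is unknown, because whole reads could not be recovered from the values. Between 15773 and 17270 genes were above 0 in a library. Proximal tubule markers were present in every library, with a summed level of 3296 FPKM (control 3) to 5623 FPKM (HS_AOS 2). Several libraries stood apart by markers of tissue that borders the kidney. The 12 adrenal markers summed to 416 to 929.5 FPKM in control 3, HS 3 and HS_AOS_FMT 2, the libraries called adrenal-rich below, to 71.0 FPKM in HS_AOS_FMT 3 and to at most 8.57 FPKM in the other 14. The 7 brown fat markers summed to 276 to 601 FPKM in HS_control_FMT 1, HS_AOS_FMT 2, HS_AOS_FMT 3 and HS 3, and to at most 151 FPKM in the others. Differences below are on the log2(FPKM + 1) scale from 1 limma fit over all 18 libraries and 12385 genes, with p-values adjusted over those genes by Benjamini-Hochberg. A gene is called where the adjusted p is under 0.05. The log2 scale with 1 added understates the differences of genes at low levels.

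Ppara, the receptor itself, was the only member called in this fit, and it separated the kidneys into 2 levels. It measured 8.90, 10.96 and 12.1 FPKM in control, 10.6, 11.5 and 10.4 in AOS, 12.8, 9.96 and 12.8 in HS, 25.9, 20.5 and 18.1 in HS_AOS, 19.2, 20.4 and 18.9 in HS_AOS_FMT and 24.7, 19.3 and 18.5 in HS_control_FMT. Every kidney of HS_AOS, HS_AOS_FMT and HS_control_FMT lay above every kidney of control, AOS and HS, whose highest value was 12.81 FPKM in HS 3, while the lowest value of the upper set was 18.07 FPKM in HS_AOS 3. Means were 10.7 ± 1.64 (SD, n = 3) in control, 10.8 ± 0.554 in AOS and 11.8 ± 1.63 in HS. They were 21.5 ± 4.02 in HS_AOS, 19.5 ± 0.798 in HS_AOS_FMT and 20.8 ± 3.4 in HS_control_FMT. Against HS, Ppara rose by 0.80 in HS_AOS (log2, SE 0.142, limma adjusted p = 0.0168). It rose by 0.68 in HS_AOS_FMT (SE 0.142, adjusted p = 0.041) and by 0.76 in HS_control_FMT (SE 0.142, adjusted p = 0.0263). The 3 comparisons share the HS kidneys, and they called 2.3%, 0.977% and 0.751% of all tested genes in either direction. Ppara lies on chromosome 15 (GRCm38, 85734910 to 85806851), and none of the 50-base stretches of its longest transcript occurred in another gene.

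**Figure D1:**
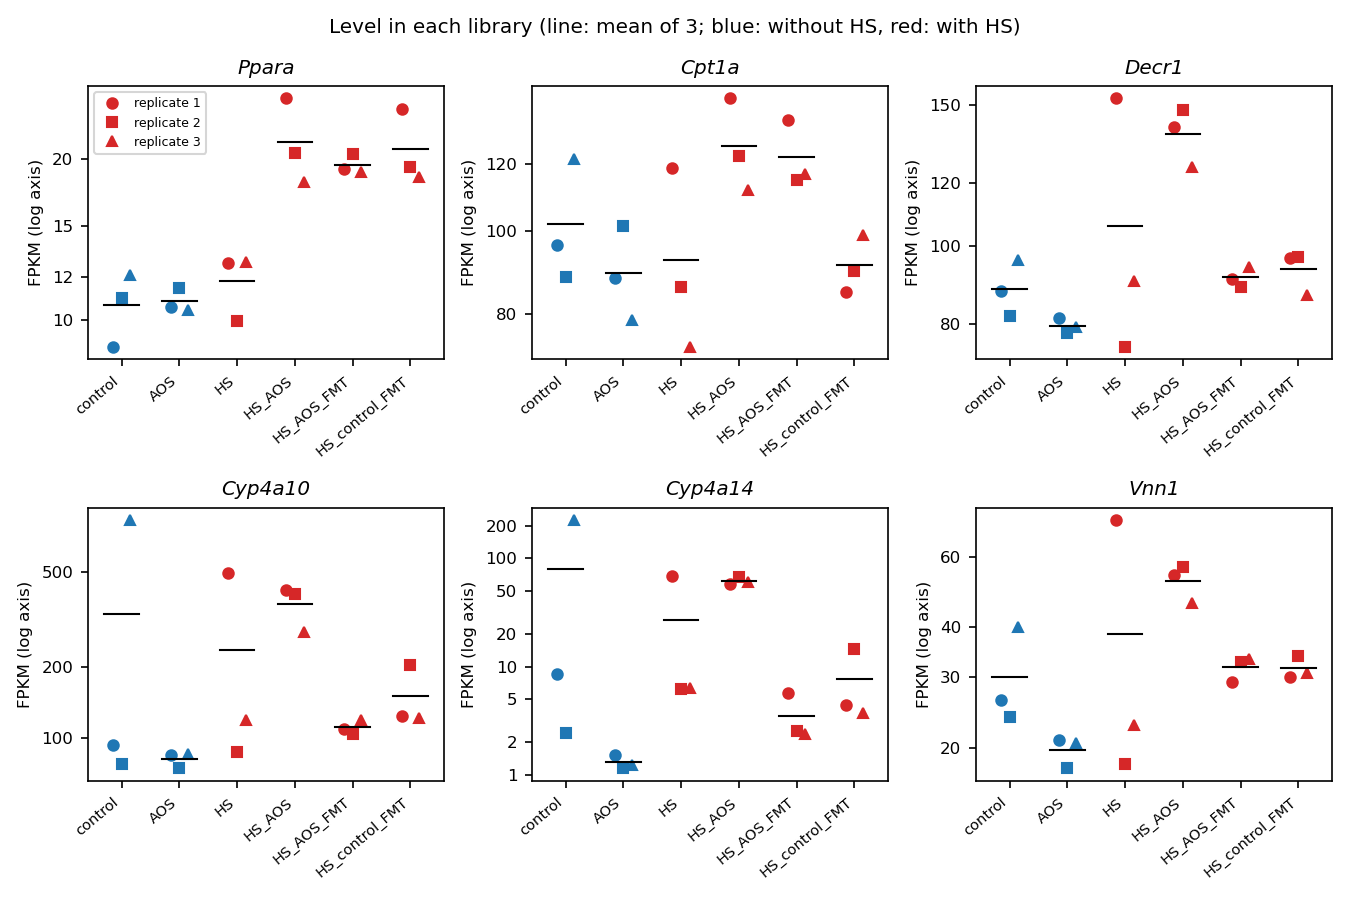
FPKM (log axis) of 6 members in each of the 18 libraries, by group; points are libraries, shaped by replicate number, and lines are means of 3. Ppara is high in all 3 treated HS groups, from 18.07 FPKM up, whereas Cyp4a10, Cyp4a14, Decr1 and Vnn1 are high in HS_AOS, in HS 1 and, for both Cyp4a genes, in control 3.

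The level of Ppara in the treated HS groups also differed from control. The change was 0.94 for HS_AOS (adjusted p = 0.00641), 0.82 for HS_AOS_FMT (adjusted p = 0.0233) and 0.90 for HS_control_FMT (adjusted p = 0.00364), in comparisons with control that were added after the data were seen and that called 2.87%, 0.46% and 3.27% of all genes. HS itself stood at 0.14 against control (SE 0.142, adjusted p = 0.925), and AOS alone at 0.03 (SE 0.142, adjusted p = 0.949). The effect of AOS within HS minus its effect without HS was 0.77 (SE 0.2, adjusted p = 0.176), which did not pass, so the effect of AOS was not shown to differ between HS and control mice. The 2 transfers differed by -0.08 (SE 0.142, adjusted p = 0.802), with the level in HS_AOS_FMT the lower. Over the 6 groups, the moderated F test gave an adjusted p of 0.00216, and Ppara was called in all 18 fits that left out 1 library, at adjusted p = 0.00108 to 0.00725.

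The pairwise calls of Ppara were less stable than the call over all 6 groups. For HS_AOS against HS, the adjusted p was 0.0769 without HS 2 and 0.0837 without HS 3, 0.0668 without the 3 adrenal-rich libraries and 0.205 with only the compared groups in the fit. For HS_AOS_FMT against HS, the call was lost without any 1 of the 6 libraries compared (adjusted p = 0.053 to 0.149) and without the 3 adrenal-rich libraries (0.178). For HS_control_FMT against HS, it was lost without HS 1, HS 2, HS 3, HS_control_FMT 1 or HS_control_FMT 2 (0.0565 to 0.112) and with only the compared groups in the fit (0.118). Against control, the call for HS_AOS_FMT was kept in 2 of the 6 fits that left out 1 compared library. It was lost without control 1 or any HS_AOS_FMT library (adjusted p = 0.0698 to 0.121), with the replicate block (0.0523) and without the 3 adrenal-rich libraries (0.0514). The calls for HS_AOS and HS_control_FMT against control were kept in all 6 such fits. With only the compared groups in the fit, all 3 calls against control were lost (0.254 for HS_AOS, 0.225 for HS_AOS_FMT and 0.152 for HS_control_FMT). The log2 change of Ppara in the 3 comparisons with HS stayed between 0.57 and 0.91 in all of the fits that left out 1 library.

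The other regulators were lower in level than Ppara. Ppargc1a, a coactivator of PPARA and of mitochondrial biogenesis, measured 6.98, 8.34 and 10.4 FPKM in control, 8.46, 6.60 and 5.62 in AOS, 6.26, 7.52 and 6.01 in HS, 7.75, 8.78 and 9.07 in HS_AOS, 8.34, 8.42 and 7.48 in HS_AOS_FMT and 6.46, 7.75 and 5.39 in HS_control_FMT. Its HS_AOS kidneys lay just above the HS kidneys, whose highest was 7.52 FPKM, while HS_control_FMT overlapped with HS. The difference between HS_AOS and HS was 0.33 (SE 0.153, adjusted p = 0.24) and did not pass. Fgf21, a fasting hormone induced by PPARA in liver, and Creb3l3, a membrane-bound transcription factor that acts with PPARA, were left out of the tests by the filter of at least 1 FPKM in at least 3 libraries. Fgf21 reached 1 FPKM in HS 2 only, with 0.36, 1.04 and 0.38 FPKM in HS. It stayed at 0 to 0.20 in control and AOS, 0 to 0.12 in HS_AOS and HS_AOS_FMT, and 0.18 to 0.36 in HS_control_FMT. All 3 HS values lay above the controls, at levels that the main fit did not test. An alternative fit without the filter called Fgf21 in the F test over the 6 groups, but in no comparison of 2 groups. Creb3l3 stayed at or below 0.54 FPKM, with its highest values in HS_AOS (0.34, 0.54 and 0.2) and in HS 1 (0.43).

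Across the 42 tested members, the pattern of Ppara was not the common one. By group mean, HS_AOS held the highest level for 27 of 42 members (64.3%), against 24.2% of all tested genes. AOS held the lowest for 25 of 42 (59.5%), against 30.5% of all tested genes. Within HS, the library HS 1 was the highest of the 3 for 35 of 42 members (83.3%), against 33.4% of all tested genes. Over the 18 libraries, HS_AOS 1 held the maximum for 12 members, HS 1 for 11 and control 3 for 7, and AOS 2 the minimum for 11. Control 3 held the maximum of 33.9% of all tested genes, a larger share than its 7 of 42 members (16.7%), while HS 1 held that of 3.79% of all genes, against 26.2% of the members. Among the members highest in HS 1 within HS were targets of PPARA. Cyp4a14 there was 10.9 times the mean of HS 2 and HS 3, Cyp4a10 4.84 times, Angptl4 4.05 times and Vnn1 3.63 times. Acot1 was 2.37 times, Eci1 2.06 times, Cpt2 2.00 times and Ppara itself 1.12 times that mean. Below it were Fabp1 (0.323 times), Fgf21 (0.507), Bdh1 (0.768) and Ppargc1a (0.925). Of these, Fabp1 and Fgf21 were near or below 1 FPKM in most kidneys. The adrenal markers summed to 2.93 FPKM in HS 1, brown fat markers to 87.0 and proximal tubule markers to 4265, against 1.86 and 587, 105 and 357, and 4883 and 4246 in HS 2 and HS 3. The 7 macrophage markers summed to 472 FPKM in HS 1, above HS 2 (246) and HS 3 (302), and to 1205 FPKM in HS_control_FMT 2, the highest of the series. Cd74 alone made up 336 FPKM of the sum in HS 1 and 1073 FPKM of that in HS_control_FMT 2. Csf1r was lower in HS 1 (9.45 FPKM) than in HS 2 (13.4) and HS 3 (12.1), and Cd68 was highest in HS 3. The other macrophage markers were highest in HS 1 within HS. The part of macrophages in the high levels of HS 1 was not tested.

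**Figure D2:**
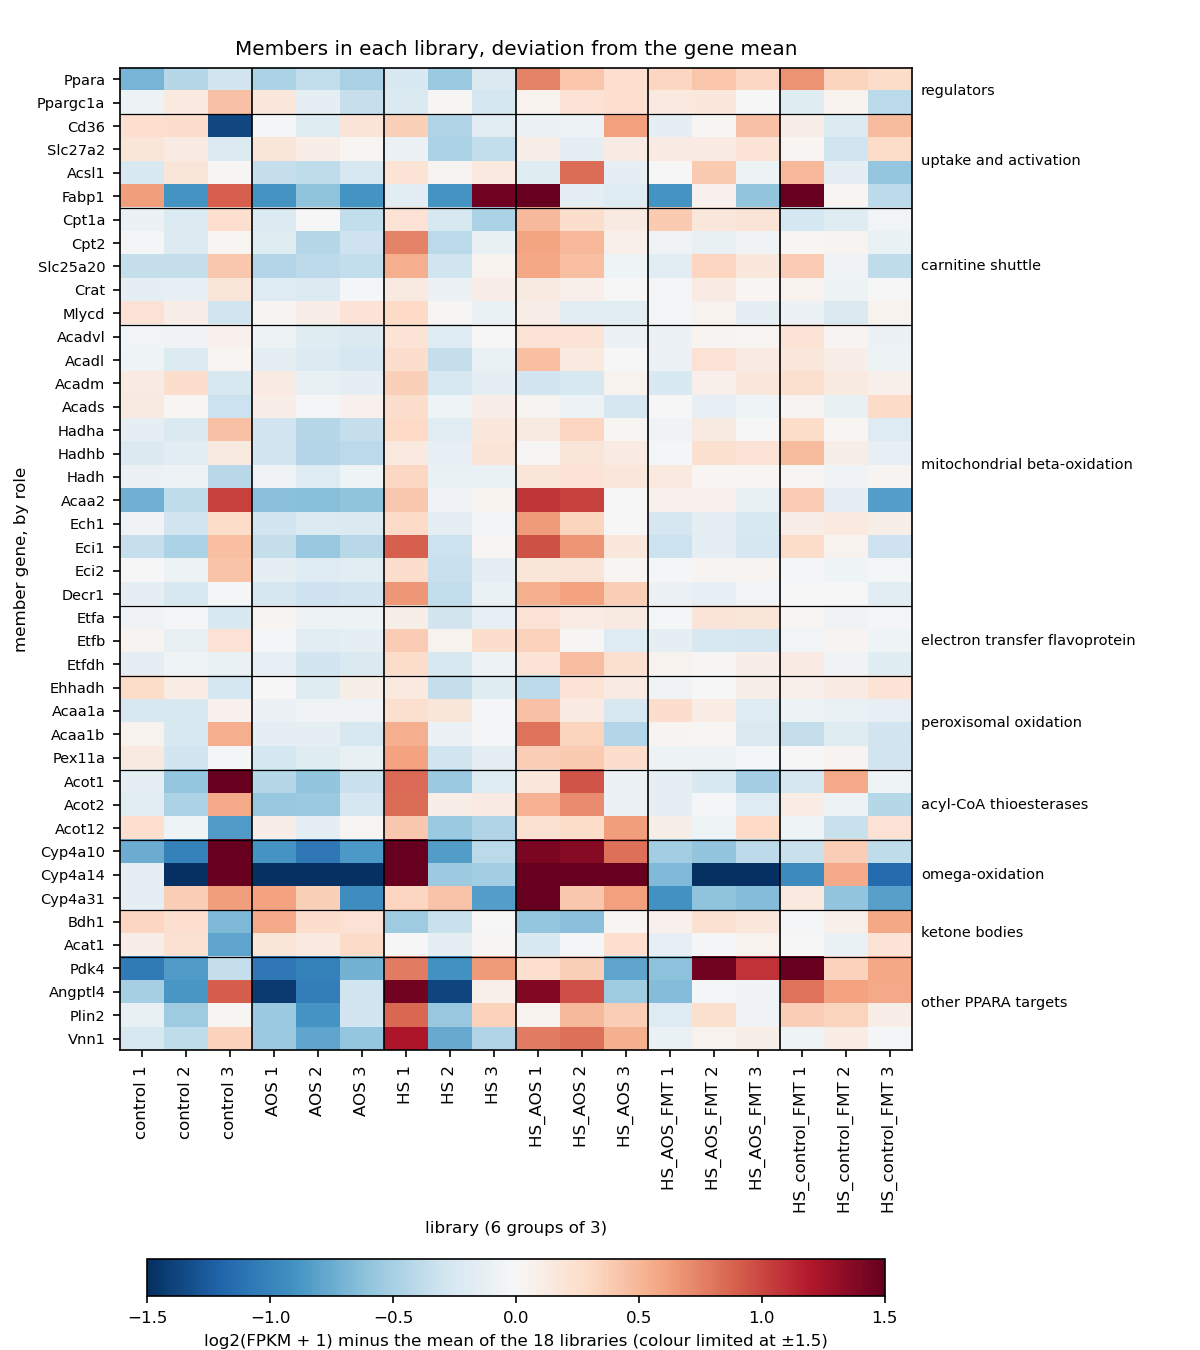
Deviation of each of the 42 tested members from its mean over the 18 libraries, on the log2(FPKM + 1) scale (colour, limited at ±1.5), with members in rows by role and libraries in columns by group. The columns of HS 1, HS_AOS 1 and HS_AOS 2 are mostly red, HS 1 being the highest HS library for 35 of 42 members, and the 3 AOS columns are mostly blue, AOS having the lowest group mean for 25.

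Among the genes of omega-oxidation, Cyp4a10 and Cyp4a14 varied widely between kidneys. Together with the other members shown in full below they were chosen for full values after their values had been seen. Cyp4a10, a fatty acid omega-hydroxylase, measured 93.7, 77.6 and 831 FPKM in control, 84.8, 74.4 and 85.7 in AOS, 498, 87.4 and 118 in HS, 420.1, 405 and 279 in HS_AOS, 109, 104 and 119.6 in HS_AOS_FMT and 124, 204 and 121 in HS_control_FMT. Cyp4a14, its close relative, measured 8.56, 2.42 and 227 FPKM in control, 1.54, 1.15 and 1.23 in AOS, 68.8, 6.25 and 6.41 in HS, 57.6, 67.4 and 60.3 in HS_AOS, 5.66, 2.55 and 2.39 in HS_AOS_FMT and 4.45, 14.7 and 3.76 in HS_control_FMT. All 3 HS_AOS kidneys, HS 1 and control 3 were high for both genes, and the other 13 kidneys were lower, at most 204 and 14.7 FPKM (HS_control_FMT 2), so HS_AOS did not overlap with either transfer group but did overlap with HS and control. Cyp4a31 measured 43.04, 61.5 and 73.8 FPKM in control, 72.9, 61.1 and 24.4 in AOS, 59.7, 64.2 and 26.4 in HS, 145, 63.1 and 73.1 in HS_AOS, 24.9, 30.9 and 29.97 in HS_AOS_FMT and 52.9, 31.2 and 26.7 in HS_control_FMT, with HS_AOS 1 highest. These 3 genes are neighbours on chromosome 4 (GRCm38, 115486200 to 115579015), and Cyp4a10 and Cyp4a31 share 25% and 15.5% of their 50-base stretches with Cyp4a32, so that reads may have been split between them. HS_AOS stood above HS by 1.06 for Cyp4a10 (SE 0.727, adjusted p = 0.434), by 2.01 for Cyp4a14 (SE 1.17, adjusted p = 0.352) and by 0.89 for Cyp4a31 (SE 0.432, adjusted p = 0.261). None of the 3 passed. Without HS 1 the differences were 1.82, 3.09 and 1.07, and none passed either. In control 3, which carries the highest Cyp4a10 and Cyp4a14 levels of the series, adrenal markers summed to 929.5 FPKM, with 11 of 12 at 1 FPKM or more, and macrophage markers to 843 FPKM. The highest macrophage sum of the series, 1205 FPKM, was in HS_control_FMT 2, and the HS_AOS kidneys had 228 to 500 FPKM. Cd74 alone made up 1073 FPKM of the sum in HS_control_FMT 2 and 660 FPKM of that in control 3. Each of the other macrophage markers was higher in control 3 than in HS_control_FMT 2, with Lyz2 at 83.2 against 53.1 FPKM. The part of these tissues in the Cyp4a levels was not tested.

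Among the other PPARA targets, Vnn1 followed the same libraries. Vnn1, a pantetheinase that is one of the strongest PPARA targets in liver, measured 26.3, 23.8 and 40.01 FPKM in control, 20.9, 17.8 and 20.6 in AOS, 74.1, 18.2 and 22.7 in HS, 54.04, 56.5 and 45.8 in HS_AOS, 29.2, 32.7 and 33.4 in HS_AOS_FMT and 30.00, 33.8 and 30.8 in HS_control_FMT. The HS_AOS kidneys lay above every other kidney except HS 1, which was the highest of all. HS_AOS stood above HS by 0.71 (SE 0.351, adjusted p = 0.274), a difference within the spread of the HS kidneys. Angptl4, an inhibitor of lipoprotein lipase, measured 10.7, 8.03 and 29.99 FPKM in control, 5.12, 7.08 and 12.4 in AOS, 44.1, 5.38 and 16.4 in HS, 42.4, 31.2 and 10.4 in HS_AOS, 9.49, 15.3 and 14.9 in HS_AOS_FMT and 28.1, 24.2 and 23.4 in HS_control_FMT. HS 1 and HS_AOS 1 were highest for it, and HS_AOS 3 lay within the range of the AOS and control kidneys. Plin2, which coats lipid droplets, ranged from 27.8 to 95.8 FPKM and was also highest in HS 1. Plin2 has 2 rows in the table, of which the one with the higher mean is used here, and the other stayed at or below 0.25 FPKM. None of the 4 targets of this kind was called in HS against control, HS_AOS against HS or AOS against control.

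Pdk4, the kinase that shuts off pyruvate dehydrogenase when fat is burned, had another order. It measured 3.31, 3.96 and 6.01 FPKM in control, 3.26, 3.44 and 4.46 in AOS, 14.3, 3.79 and 12.9 in HS, 9.64, 10.4 and 4.18 in HS_AOS, 4.83, 23.3 and 17.9 in HS_AOS_FMT and 32.4, 10.4 and 12.4 in HS_control_FMT. Its highest values lay in HS_control_FMT 1, HS_AOS_FMT 2 and HS_AOS_FMT 3, and HS 1 and HS 3 came next. All of these kidneys but HS 1 were the ones with the high brown fat sums given above, 276 FPKM or more, and the 8 white fat markers summed to 1316 FPKM in HS 3, 1174 in HS_control_FMT 1, 856 in HS_AOS_FMT 2, 606 in HS_AOS_FMT 3 and 271 in HS 1, against 93.9 to 598 FPKM elsewhere. Ucp1, which defines brown fat, was 42.5 FPKM in HS 3 and 133 in HS_control_FMT 1, and 0.57 in HS 1. The part of fat tissue in the Pdk4 level was not tested. HS_control_FMT stood above HS by 0.77 (SE 0.559, adjusted p = 0.522), and HS above control by 0.92 (SE 0.559, adjusted p = 0.836).

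In the carnitine shuttle, Cpt1a and Cpt2 showed the clearest order. Cpt1a, the outer membrane enzyme that limits the entry of long chains into mitochondria, measured 96.3, 88.5 and 121 FPKM in control, 88.2, 101 and 78.7 in AOS, 118, 86.2 and 73.3 in HS, 143, 123 and 112 in HS_AOS, 135, 115 and 117 in HS_AOS_FMT and 85.03, 89.98 and 99.1 in HS_control_FMT. HS_AOS and HS_AOS_FMT were both high, and they lay above HS 2 and HS 3 but not all above HS 1, while HS_control_FMT overlapped with AOS and control. The change against HS was 0.46 in HS_AOS (SE 0.161, adjusted p = 0.132), 0.42 in HS_AOS_FMT (SE 0.161, adjusted p = 0.184) and 0.01 in HS_control_FMT (SE 0.161, adjusted p = 0.988). The 2 transfers differed by 0.41 (SE 0.161, adjusted p = 0.163), with no overlap between them. Cpt2, which returns the chain to coenzyme A inside the mitochondrion, measured 78.99, 69.8 and 82.4 FPKM in control, 71.2, 60.00 and 64.9 in AOS, 136, 60.9 and 74.6 in HS, 122, 114 and 85.2 in HS_AOS, 77.6, 74.9 and 77.6 in HS_AOS_FMT and 82.2, 82.9 and 75.6 in HS_control_FMT. HS 1 was again the highest, followed by HS_AOS 1 and HS_AOS 2. Slc25a20, the carrier that moves acylcarnitines across the inner membrane, ranged from 16.2 to 34.00 FPKM, with its lowest group mean in AOS (16.7 ± 0.463) and its highest in HS_AOS (28.7 ± 6.64). Crat, carnitine acetyltransferase, and Mlycd, which removes the CPT1 inhibitor malonyl-CoA, had group means close together, from 61.04 to 70.5 FPKM and from 32.4 to 37.3 FPKM.

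All 12 mitochondrial beta-oxidation genes were tested. Their median difference was 0.18 in HS_AOS against HS (10 positive), -0.04 in HS_AOS_FMT against HS, 0.01 in HS_control_FMT against HS and -0.18 in AOS against control (10 negative), with none called. Decr1, the dienoyl-CoA reductase needed for unsaturated chains, measured 87.9, 81.8 and 96.1 FPKM in control, 81.4, 78.1 and 79.5 in AOS, 153, 75.02 and 90.7 in HS, 141, 148 and 125 in HS_AOS, 91.2, 88.97 and 94.3 in HS_AOS_FMT and 96.7, 97.1 and 87.1 in HS_control_FMT. All HS_AOS kidneys and HS 1 lay above 120 FPKM and all other kidneys below 100 FPKM. HS_AOS stood above HS by 0.44 (SE 0.174, adjusted p = 0.174). It stood above HS_AOS_FMT by 0.58 (adjusted p = 0.703) and above HS_control_FMT by 0.55 (adjusted p = 0.0586), without a call in limma. Acaa2, the mitochondrial thiolase, measured 64.7, 81.7 and 219 FPKM in control, 69.00, 68.6 and 70.03 in AOS, 142, 103 and 111 in HS, 227, 219 and 108 in HS_AOS, 112, 112 and 99.1 in HS_AOS_FMT and 139, 97.1 and 60.1 in HS_control_FMT. Its high kidneys were HS_AOS 1, HS_AOS 2 and control 3, and HS_AOS 3 was at the HS level. Eci1, an enoyl-CoA isomerase, ranged from 74.7 to 216 FPKM and Ech1, a dienoyl-CoA isomerase, from 332 to 630.3 FPKM, with HS_AOS 1 the highest for both and HS 1 among the next 2.

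The acyl-CoA dehydrogenases carry out the first step of each beta-oxidation cycle, each for its own chain length. Acadvl ranged from 139 to 188 FPKM, Acadl from 125 to 219.8, Acadm from 429 to 672 and Acads from 87.2 to 134. For HS_AOS against HS, Acadvl stood at 0.11, Acadl at 0.26, Acadm at -0.15 and Acads at -0.20, with a smallest adjusted p of 0.33 (Acadl), and Acadm at 0.03 without HS 1. Acadm was lowest in HS_AOS 1 and HS_AOS 2 and highest in HS 1. Hadha and Hadhb, the subunits of the trifunctional protein, lie side by side on chromosome 5, and both had their lowest group mean in AOS (52.7 ± 2.66 and 108 ± 6.03 FPKM), with all 3 AOS kidneys below all 3 controls. Hadhb was highest in HS_control_FMT 1 (196 FPKM), HS_AOS_FMT 2 (166) and HS_AOS_FMT 3 (163), which are also kidneys with high brown fat sums, and the part of fat tissue in these levels was not tested. Hadh, the short-chain hydroxyacyl-CoA dehydrogenase, measured 418, 421 and 333 FPKM in control, 431, 389.9 and 425 in AOS and 554, 417 and 417 in HS. It measured 507, 518 and 502 FPKM in HS_AOS, 492, 456 and 450.1 in HS_AOS_FMT and 452, 429.8 and 460.1 in HS_control_FMT, and all kidneys of these 3 groups lay above every control. Eci2, the peroxisomal and mitochondrial isomerase, ranged from 62.96 to 107 FPKM.

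The electron transfer flavoprotein passes electrons from the dehydrogenases to the respiratory chain. Etfa, its alpha subunit, measured 247, 191 and 212 FPKM in HS and 269, 251 and 254 in HS_AOS, which did not overlap, with a difference of 0.26 (SE 0.0942, adjusted p = 0.144). Etfdh, the oxidoreductase that hands the electrons to ubiquinone, measured 75.96, 79.7 and 77.4 FPKM in control, 76.3, 67.9 and 71.5 in AOS, 101, 70.3 and 78.99 in HS, 95.97, 116 and 98.8 in HS_AOS, 86.3, 84.3 and 89.6 in HS_AOS_FMT and 90.9, 80.6 and 73.3 in HS_control_FMT. HS_AOS 2, HS_AOS 3 and HS 1 were the 3 highest kidneys, and HS_AOS lay above both transfer groups. Etfb, the beta subunit, had another order, with 716, 569 and 658 FPKM in HS, 696, 556 and 482 in HS_AOS, 498, 463 and 460.0 in HS_AOS_FMT and 534, 565 and 526 in HS_control_FMT. Both transfer groups lay below all HS kidneys, and HS_AOS_FMT differed from HS by -0.45 (SE 0.123, adjusted p = 0.0841), which was called at 0.0399 with control 3 left out of the fit (5.04% of all genes called). Its level is uncertain, because 67.3% of the 50-base stretches of Etfb also occur in the annotated gene Gm45233.

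Among peroxisomal genes and thioesterases, HS 1 and the HS_AOS kidneys led for Pex11a. The highest kidneys for Acot1 and Acot2 were HS 1, HS_AOS 2 and control 3, and those for Acaa1b were HS_AOS 1, control 3 and HS 1. Ehhadh, Acaa1a and Acot12 had other orders. Pex11a, which drives peroxisome division, measured 38.4, 28.5 and 34.7 FPKM in control, 28.9, 30.8 and 32.3 in AOS, 53.5, 28.3 and 31.4 in HS, 45.6, 46.1 and 42.1 in HS_AOS, 33.2, 33.1 and 34.3 in HS_AOS_FMT and 34.7, 35.9 and 28.3 in HS_control_FMT. HS 1 was the highest, the HS_AOS kidneys followed, and both transfer groups lay below HS_AOS. The difference between HS_AOS and HS was 0.29 (SE 0.175, adjusted p = 0.365). Ehhadh, the peroxisomal bifunctional enzyme, ranged from 175 to 278 FPKM. The peroxisomal thiolases Acaa1a and Acaa1b ranged from 64.02 to 104 and 87.98 to 210.4 FPKM, and 35.5% of the stretches of Acaa1b occur in Acaa1a, so their split is uncertain. Acot1, a cytosolic thioesterase that frees fatty acids from coenzyme A, measured 35.7, 26.2 and 119.8 FPKM in control, 72.4, 26.6 and 34.6 in HS and 44.5, 76.8 and 37.05 in HS_AOS, and at most 59.3 FPKM (HS_control_FMT 2) in the other groups. Control 3, HS_AOS 2 and HS 1 were the high kidneys. Its mitochondrial neighbour Acot2, which shares 24.5% of its stretches with Acot1, ranged from 8.63 to 24.5 FPKM, and Acot12, an acetyl-CoA thioesterase, from 44.02 to 124 FPKM.

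Uptake genes and ketone genes had orders of their own. Slc27a2, a very long chain acyl-CoA synthetase and fatty acid transporter, was the most abundant member, with 1178, 901 and 968 FPKM in HS and 1364, 1366 and 1449.7 in HS_AOS_FMT. These groups did not overlap, and the difference was 0.46 (SE 0.144, adjusted p = 0.115). The fatty acid receptor Cd36 ranged from 88.7 to 352 FPKM, with control 3 the lowest, and Acsl1, which activates long chains, from 40.3 to 109 FPKM, with HS_AOS 2 the highest. Fabp1, the liver-type fatty acid binding protein, reached 1 FPKM in 5 libraries only, with 5.55 FPKM in HS_control_FMT 1, 4.92 in HS_AOS 1, 4.09 in HS 3, 2.45 in control 3 and 1.87 in control 1. The liver marker Alb was highest in the same 3 leading libraries, with 30.2 FPKM in HS 3, 20.2 in HS_control_FMT 1 and 16.3 in HS_AOS 1. Apoa2 was highest in these libraries too. Ahsg and Fgb were highest in HS 3 (5.89 and 2.51 FPKM) and HS_control_FMT 1 (4.18 and 2.29), followed by control 1 (1.3 and 1.19). The remaining liver markers had other orders. Ttr was highest in AOS 1 (50.8 FPKM), Apoc3 in control 3 (34.5) and Apoh in HS_control_FMT 3 (19.9). The 8 liver markers summed to 113 FPKM in HS 3, 84.0 in AOS 1, 80.8 in HS_control_FMT 1 and 67.2 in HS_AOS 1. The part of liver RNA in the Fabp1 level was not tested. Bdh1, which interconverts the ketone bodies, measured 78.9, 75.3 and 39.1 FPKM in control, 93.8, 75.5 and 73.1 in AOS, 43.2, 49.5 and 62.99 in HS, 41.9, 40.5 and 64.04 in HS_AOS, 65.7, 74.05 and 70.2 in HS_AOS_FMT and 62.2, 66.3 and 94.5 in HS_control_FMT. HS_AOS 1 and HS_AOS 2 were low together with HS 1 and control 3, which were all high for the Cyp4a genes, and all HS_AOS kidneys lay below all HS_AOS_FMT kidneys. Acat1, the mitochondrial acetoacetyl-CoA thiolase, ranged from 181 to 384 FPKM, with control 3 the lowest.

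The comparison of HS with control asked what diet and STZ did to these genes. No member was called among 42, where 0.0646% of all tested genes were, and no tested member was without overlap between the groups, where 4.59% of all genes were higher and 3.95% lower in that sense. With an unadjusted p under 0.05 in limma, 1 member was lower, Slc27a2 (-0.35), against 3.29% of all genes, and 1 higher, Hadh (0.24), against 3.33%. The remaining 40 differences ranged from -0.33 (Cyp4a14) to 0.92 (Pdk4). The median over the members was 0.08, and -0.08 without HS 1. The median of all genes was 0.00.

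The comparison of HS_AOS with HS asked what AOS did under diet and STZ. Ppara rose and no other member was called, 1 of 42 against 1.1% of all genes called higher and 2.3% in either direction. Of the 42, 35 had a positive difference and the median was 0.25, where the median of all genes was 0.01. At an unadjusted p under 0.05, 8 members were higher and none lower, against 10.8% and 9.52% of all genes. Besides Ppara these were Ppargc1a, Slc27a2, Cpt1a, Decr1, Etfa, Etfdh and Acot12, with differences of 0.26 to 0.58. The libraries also differed in how a gene's deviation followed its GC content. The Spearman correlation was 0.208, 0.332 and 0.294 in HS 1 to 3 and 0.110, -0.239 and -0.592 in HS_AOS 1 to 3. Ppargc1a, Etfdh, Acot12, Decr1 and Etfa held 41.7% to 45.0% GC (median of tested genes 49.8%), and Slc27a2 and Cpt1a 52.1% and 51.3%. With the GC and length trend removed, Ppara was still the only member called. The part of this trend in the other differences was not tested. The 3 HS_AOS kidneys lay above all 3 HS kidneys for 3 tested members, Ppara, Ppargc1a and Etfa, where 13.6% of all genes did so. Proximal tubule markers summed to 4705 to 5623 FPKM in HS_AOS and 4246 to 4883 FPKM in HS, and the 6 markers of the thick ascending limb to 738 to 951 against 1012 to 1347 FPKM. Their part in the members' differences was not tested.

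**Figure D3:**
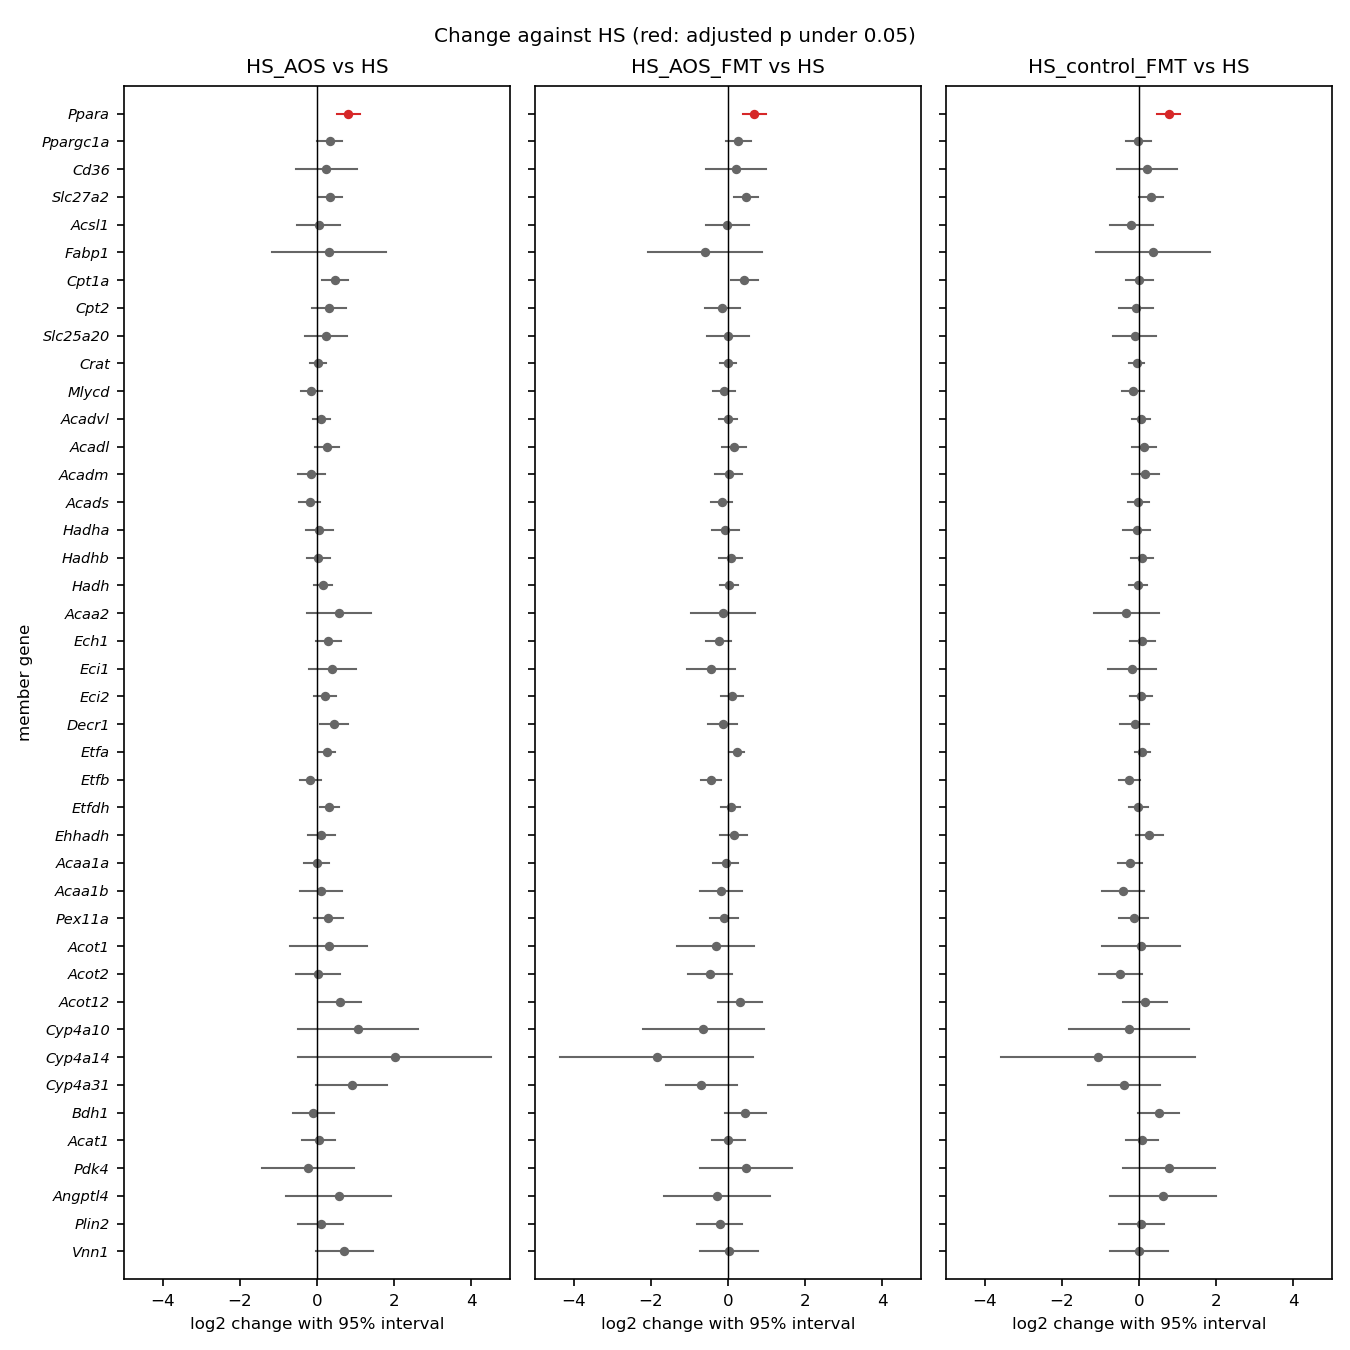
Log2 change of each tested member against HS with its 95% interval, for HS_AOS, HS_AOS_FMT and HS_control_FMT (panels, sharing the HS libraries); red marks an adjusted p under 0.05. Ppara is the red point in all 3 panels, and the interval of Cyp4a14, at 2.01, -1.85 and -1.07, is the widest.

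The number of members called in HS_AOS against HS depended on single libraries. Without HS 1, 8 of 42 members rose in HS_AOS and none fell, where 2.09% of all genes were called higher in the same fit. Vnn1 rose by 1.31 (SE 0.173, limma adjusted p = 0.00386) and Decr1 by 0.73 (SE 0.0985, adjusted p = 0.00386). Ppara rose by 0.86 and Cpt1a by 0.65 (adjusted p = 0.0138 and 0.0305). Cpt2, Pex11a, Etfdh and Etfa rose by 0.64, 0.56, 0.46 and 0.36, at adjusted p = 0.0213 to 0.0439. Then 38 of 42 members were positive and the median was 0.39. Without HS 2 or HS 3 no member was called, and the median was 0.04 without HS 2. HS 1 was singled out after these values were seen, in a set of fits that left out each library in turn, and the 2 remaining HS kidneys borrow the spread of the other groups. HS 2 and HS 3 also had the highest correlations with GC content of the series, 0.332 and 0.294. The part of that trend in these differences was not tested.

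**Figure D4:**
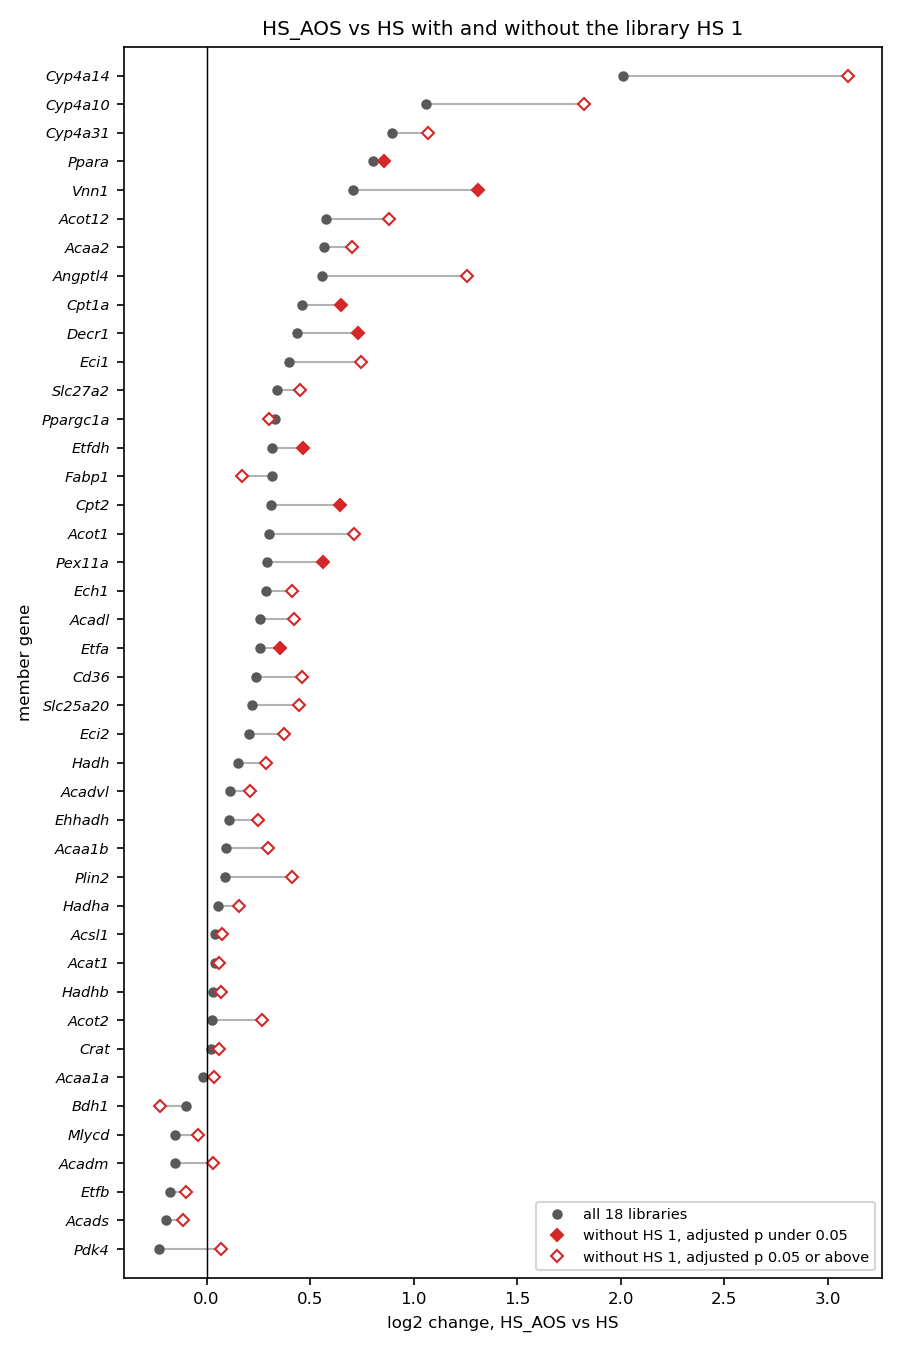
Log2 change of HS_AOS against HS for the 42 tested members, with all 18 libraries (grey circles) and without HS 1 (diamonds, filled where the adjusted p is under 0.05). Most points move to the right: the median goes from 0.25 to 0.39 and the members called from 1, Ppara, to 8.

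The comparisons of the transfers with HS asked what the transfers did to kidneys exposed to diet and STZ. In HS_AOS_FMT, Ppara was the only member called, against 0.977% of all genes in either direction and 0.444% higher. The median over the members was -0.02, with 19 positive and 23 negative. At an unadjusted p under 0.05, Ppara, Slc27a2, Cpt1a and Etfa were higher (4 of 42, against 9.46% of all genes) and Etfb lower (1 of 42, against 8.63%). The correlation with GC content, given above for HS, was -0.0856, -0.138 and -0.412 in HS_AOS_FMT 1 to 3, and its part was not tested. Ppara, Slc27a2 and Bdh1 lay above HS in every kidney (3 of 42, against 15.8%) and Etfb, Acot2 and Cyp4a14 below it (3 of 42, against 13.7%). In HS_control_FMT, Ppara was again the only one, against 0.751% of all genes in either direction and 0.46% higher, and the median was -0.01, where that of all genes was -0.08. At an unadjusted p under 0.05, Ppara and Slc27a2 were higher (2 of 42, against 4.36%) and none lower. Every kidney lay above HS for Ppara alone (6.53% of all genes) and below it for Etfb, Acaa1a and Acaa1b (3 of 42, against 18.8%). Without HS 1, no member was called in either comparison, where 0.753% and 0.13% of all genes were, and the medians were 0.13 and 0.17. Between the transfers, no member was called, where 3.99% of all genes were. Cpt1a was the only member higher in HS_AOS_FMT at an unadjusted p under 0.05 in limma, where 15% of all genes were, and also the only one without overlap above (21.8% of all genes). Ech1, Etfb, Cyp4a10 and Angptl4 were lower in every HS_AOS_FMT kidney than in every HS_control_FMT kidney, 4 of 42, against 7.56% of all genes.

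AOS was also compared with control in mice without the diet and STZ. No member was called, where 0.0646% of all genes were, and Hadha (-0.39) and Cyp4a14 (-3.09) were lower at an unadjusted p under 0.05, against 6% of all genes. Without control 3, Cyp4a14 stood at -1.31 and Hadha at -0.18, and neither kept an unadjusted p under 0.05. Of the 42, 31 had a negative difference, and the median was -0.18, against -0.09 over all genes. Every AOS kidney lay below every control kidney for 9 members, Acsl1, Slc25a20, Acadvl, Hadha, Hadhb, Eci2, Decr1, Cyp4a14 and Vnn1, 9 of 42 where 10.1% of all genes did so. None lay above control in every kidney, where 2.98% of all genes did. Without control 3, the median was -0.09, against -0.01 over all genes, and 36 of 42 members were negative.

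The effect of AOS in HS mice minus its effect in control mice tests whether the diet and STZ altered the response. No member was called, where 0.0727% of all genes were. At an unadjusted p under 0.05, 10 members were higher and none lower, against 10.9% and 4.05% of all genes, from 0.43 for Etfdh to 5.10 for Cyp4a14. Without control 3, Cyp4a14 stood at 3.32 (adjusted p = 0.266 in limma). The median was 0.42, against 0.10 over all genes, and 33 of 42 were positive. Without HS 1, 2 members were called in this test, Vnn1 at 1.86 (SE 0.233, limma adjusted p = 0.00265) and Decr1 at 0.88 (SE 0.132, adjusted p = 0.0126), against 0.413% of all genes.

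HS_AOS was set against each transfer group in comparisons that were added after the data were seen. Against HS_AOS_FMT, limma called no member and no gene at all (0%), and 10 members were higher and 1, Bdh1, lower at an unadjusted p under 0.05, against 2.49% and 2.69% of all genes. The 10 were Cpt2, Ech1, Eci1, Decr1, Etfb, Etfdh, Pex11a, Cyp4a10, Cyp4a14 and Cyp4a31, from 0.25 for Etfdh to 3.86 for Cyp4a14. For 12 tested members every HS_AOS kidney lay above every HS_AOS_FMT kidney, where 6.57% of all genes did so: Cpt2, Hadh, Ech1, Eci1, Decr1, Etfdh, Pex11a, Acot1, Cyp4a10, Cyp4a14, Cyp4a31 and Vnn1. Only Bdh1 lay below it in every kidney, where 5.18% of all genes did. Ppara was not among either, with a difference of 0.12 (SE 0.142). Against HS_control_FMT, no member was called, where 9.05% of all genes were. At an unadjusted p under 0.05, 8 members were higher, against 18.8%, and Bdh1 lower, against 8.09%. Every HS_AOS kidney lay above every HS_control_FMT kidney for 13 tested members, where 21.8% of all genes did so, and below it for Acadm, where 8.52% did. Without HS 1, 5 members were called (Cpt1a, Etfdh, Decr1, Pex11a and Vnn1, with 9.68% of all genes), and without control 3 also 5 (Cyp4a14, Acaa2, Cpt1a and Decr1 higher and Bdh1 lower, with 17.5%). Ppara differed by 0.04 (SE 0.142). Cyp4a14 stood at 3.86 and 3.08 against the 2 transfer groups (SE 1.17 in both, adjusted p = 0.703 and 0.108). These tests share the HS_AOS kidneys. Against control, HS_AOS gave a call for Ppara alone among 42, and for 5 members without HS 1 (Hadh, Etfdh, Decr1, Ppara and Vnn1, with 3.12% of all genes) or without control 3 (Cyp4a14, Cyp4a10, Acaa2, Decr1 and Ppara, with 7.14%).

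Over all 6 groups, the moderated F test called 1 of 42 members, Ppara, where it called 8.21% of all genes. With an unadjusted p under 0.05 there were 15 of 42, against 28.8% of all genes. The number called depended on control 3. Without it, 11 members were called (Ppara, Cyp4a14, Hadhb, Bdh1, Ech1, Acaa2, Cyp4a10, Decr1, Acot2, Cpt1a and Hadha), but so were 20.4% of all genes. Without HS 1, 7 members were called (Ppara, Decr1, Vnn1, Etfdh, Cpt2, Pex11a and Cpt1a), with 8.41% of all genes.

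The wider pathway was read from 86 further genes, of which 85 had a row and 79 were tested. In HS_AOS against HS, 2 of 79 rose and none fell, where 2.3% of all genes were called. These were Slc22a5, the plasma membrane carnitine transporter, from 79.9 to 108 FPKM (0.44, SE 0.109, limma adjusted p = 0.0477), and Esrrg, an orphan receptor of oxidative metabolism, from 8.71 to 13.2 FPKM (0.56, SE 0.111, adjusted p = 0.0279). In HS_AOS_FMT against HS_control_FMT, 2 of 79 (2.53%) were called, both higher. Among all 12385 genes, 3.99% were called in either direction and 359 genes higher, so the count was no larger than that share. The 2 were the peroxisomal oxidase Acox3 (0.56, limma adjusted p = 0.0188) and the acyl-CoA synthetase Acsl3 (0.71, adjusted p = 0.0332). None was called in either transfer group against HS, in HS against control or in AOS against control. The F test called 7 of 79, against 8.21% of all genes: Acox2, Acox3, Phyh, Slc22a5, Cyp4a12b, Esrrg and Lpin1.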

How the data were processed

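The authors deposited 1 table of gene values for the 18 libraries, read here as FPKM from the values: sums weighted by transcript length varied by 0.93% (coefficient of variation), plain sums by 4.29%. Per the submitters' processing notes, Bowtie 0.12.2 and mm10 were used. The program behind the gene values is not given in the sources used here. Whole reads could not be recovered (24.4% to 35.7% of low values within 0.1 of a step), so no count test was run. After a filter of 1 FPKM in 3 libraries (12385 genes kept, 7160 left out), log2(FPKM + 1) was fitted in limma 3.58.1 (R 4.3.3, trend and robust, 12 residual degrees of freedom), with 1 mean per group. After each gene's group means were subtracted, same-numbered libraries correlated at 0.121 to 0.243 in HS against control. The main fit used no pairs in any comparison. In an alternative fit, blocking on the replicate number left 0 members called in HS against control. On simulated data for HS_AOS against HS (12385 genes), 86% of 2-fold and 100% of 4-fold changes were recovered, with 9 false calls. The simulated noise was normal and independent between libraries, and changes were placed only in genes above a minimum level. It held no single high library such as HS 1 or control 3 and no GC trend. The recovered shares therefore need not hold for members with such spread, such as Cyp4a10 and Cyp4a14. Members, lists and contrasts were chosen with earlier results of these data known. By rule, full statistics went to members that were called and to Ppara. The other members given in full were picked after their values were seen. Alternatives were a replicate block, other scalings, filters, pseudocounts and weights, and fewer groups or libraries.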

Additional observations from a re-analysis of the deposited data

How the results depend on the processing

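Members called and Ppara differences moved with the fit as follows. The counts of members in this section stand without the share of all genes called in the same fit. They show how the counts moved with the fit and are not a result about the members. With array weights, whose estimation stopped before its tolerance was reached, 21 members were called in HS_AOS against HS, 5 in HS_AOS_FMT against HS, 2 in HS_control_FMT against HS, 2 between the transfers, 11 in the effect of AOS in HS minus that in control, and 37 in the F test. HS_AOS then gave 11 against HS_AOS_FMT, 22 against HS_control_FMT and 29 against control, and HS_control_FMT gave 9 against control. Such weights can make a high or low library count for less, and the cause of these calls was not tested. The replicate block gave 0 members for HS_AOS_FMT against HS and 0 for HS_AOS_FMT against control. The block with the GC and length trend removed gave 0 for HS_AOS_FMT against HS and 2 in the F test, as did the trend removal alone (2), which also gave 2 for HS_AOS against control. The block changed no other call of a member. The libraries share only a number, and outside HS against control same-numbered libraries correlated at -0.356 to 0.312 after group means were subtracted. Quantile normalization gave 1 for HS_AOS against HS_control_FMT (Decr1) and 2 for HS_AOS against control. For HS_AOS_FMT against HS, plain limma and no filter gave 0. No filter gave 2 in the F test, with Fgf21. Without the 3 adrenal-rich libraries, the counts were 0 for HS_AOS against HS, 0 for HS_AOS_FMT against HS, 0 for HS_AOS_FMT against control, 3 for HS_AOS against HS_control_FMT, 3 for HS_AOS against control and 3 in the F test. With only the compared groups in the fit, which have fewer samples to estimate the spread, they were 0 for HS_AOS against HS, 0 for HS_control_FMT against HS, 0 for HS_AOS, HS_AOS_FMT and HS_control_FMT against control, 2 for HS_AOS against HS_AOS_FMT and 4 for HS_AOS against HS_control_FMT. Leaving out 1 library each gave 0 to 8 members for HS_AOS against HS, 0 to 2 for HS_AOS_FMT against HS, 0 to 1 for HS_control_FMT against HS, 0 to 2 for the effect of AOS in HS minus that in control, 0 to 5 for HS_AOS against HS_control_FMT, 1 to 5 for HS_AOS against control, 0 to 1 for HS_AOS_FMT against control and 1 to 11 in the F test. The members' median then ranged from -0.079 to 0.21 in HS against control, 0.040 to 0.39 in HS_AOS against HS, -0.12 to 0.13 in HS_AOS_FMT against HS, -0.13 to 0.17 in HS_control_FMT against HS and 0.29 to 0.59 in the effect of AOS in HS minus that in control. The Ppara differences that were near 0 changed sign. Leaving out 1 library each, they ranged from -0.085 to 0.12 in AOS against control, -0.015 to 0.23 in HS_AOS against HS_AOS_FMT, -0.10 to 0.16 in HS_AOS against HS_control_FMT and -0.16 to 0.042 between the transfers. HS_AOS against HS_control_FMT gave -0.033 for Ppara with the GC and length trend removed, with or without the block, and -0.17 with array weights. A pseudocount of 0.1 and a filter of 5 FPKM moved no count of called members by over 1.5 times. Among all alternatives, the Ppara results kept direction and side of the threshold in 203 cases, lost the threshold in 30, gained it in 1 and changed sign in 10. Sequencing depth is unknown, so the counting error of members near 1 FPKM, such as Fabp1, could not be given.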
